A study of Mus musculus with 35 samples.

Results

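Skin that had received 25 Gy was compared with control skin 4 weeks later, over all genes, in 8 of the 35 samples of the series. The radiated group (labelled radiated, week 4) and the control group (labelled control, week 4) held 4 samples each. All mice were female C57BL/6J, a common inbred laboratory strain, and 10 weeks old. Radiation was given to left flank skin in 420 seconds (3.6 Gy per min), and the treated skin was then shaved with an electric razor. The labels do not say where on the body control skin was taken, nor whether it was shaved, so radiation, body site and shaving cannot be told apart here. The 35 samples came from 19 mice, so mice gave more than 1 sample. With 19 mice in 5 groups, each irradiated mouse may have given 1 radiated and 1 control sample, so control skin may come from irradiated mice. Radiated and control samples of the same number may thus share a mouse, but they were not treated as pairs in the main test. An edgeR fit with the number as a block (the replicate block) gave 7623 genes with an adjusted p under 0.05, against 8643 in the main test. The labels do not state which mouse gave which sample, and nothing in them says that the replicates were processed apart, so p-values measure the spread between these samples. The 3 sham samples are given beside both groups as levels, with no test.

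Skin is layered. Basal keratinocytes divide and carry the keratins Krt5 and Krt14, and daughter cells that move up switch to Krt1 and Krt10 before they form the cornified envelope, a cross-linked protein shell that keeps water in and microbes out. Injured or inflamed epidermis replaces part of this programme with Krt6a, Krt6b and Krt16 and with small proline-rich proteins. High single doses of radiation are known to cause dermatitis with shedding of the epidermis after a delay of weeks, loss of hair and sebaceous glands, an influx of white blood cells and, later, fibrosis of the dermis.

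The total count of the 8 libraries lay between 17773240 and 26824552. The 6 markers of keratinocytes and dermal fibroblasts (Krt5, Krt14, Krt1, Krt10, Col1a1 and Col3a1) had counts in all 8, with a lowest value of 152 CPM, so the tissue label and the RNA go together. CPM is a gene's count scaled to a common library size. On the first principal component, which held 63% of the variance, radiated libraries lay between 55.3 and 92.8 and control libraries between -83.5 and -69.2. Radiated replicate 3 stood apart on the second component (10.8% of the variance), at -74.7 against 19.4 to 30.8 for the other radiated libraries, and it carried most of the hair follicle RNA of its group. Control replicate 1 held far less skeletal muscle RNA than the other control libraries. Mitochondrial genes made up 1.10% to 1.22% of the counts of radiated and 2.14% to 2.65% of those of control libraries, and the part of this difference in the results was not tested.

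Of 17850 genes tested with edgeR, 8643 (48.4%) had an adjusted p under 0.05, the threshold for a call in all that follows. A total of 4321 (24.2%) were higher and 4322 (24.2%) were lower in radiated skin, and these shares are the background for every gene group. Of 410 members of the gene lists described here that were higher, 61 did not reach the filter on low counts in the 4 control libraries alone, and of 189 that were lower 14 did not reach it in the 4 radiated libraries alone. Such genes could be tested only through the group where they were high, so list counts describe the lists. The rises were larger than the falls: 186 genes rose and 49 fell by at least 4 on the log2 scale, and 32 rose but 0 fell by 8 or more. All 4 radiated libraries lay above all 4 control libraries in 4084 genes (22.9%) and below them in 4135 (23.2%). Because whole skin was sequenced, fewer cells of a type and less RNA per cell cannot be told apart in any of these differences. Members of near-identical families (Stfa, Sprr2, Lce3, Krt6, Skint, Mrgprb, Hamp and Ccl27) share reads that the counting had to split, so their single values are uncertain.

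The 12 largest rises were keratinocyte genes of wounded skin, protease inhibitors, matrix proteases, a matrix glycoprotein and hair keratins. Krt6b (chromosome 15, 101676023 to 101680287, GRCm38), a keratin of injured epidermis, had 2804, 3117, 1922 and 2351 CPM in radiated replicates 1 to 4 and 1.69, 1.81, 1.37 and 1.46 CPM in control replicates 1 to 4 (log2 fold change 10.66, SE 0.231, edgeR adjusted p 1.49e-08). Krt16 (chromosome 11, 100246091 to 100248902), its usual partner in the filament, had 4613, 5932, 3380.3 and 4594 CPM against 31.1, 22.8, 13.8 and 12.8 CPM (log2 fold change 7.86, SE 0.375, edgeR adjusted p 1.4e-06). In both genes the lowest radiated library was far above the highest control library. Sprr1b (chromosome 3, 92436809 to 92438789), a small proline-rich protein of the cornified envelope, was at 77.7, 103, 240.0 and 140.0 CPM in radiated and 0.529, 0.265, 0.598 and 0.0384 CPM in control libraries (log2 fold change 8.66, SE 0.56, edgeR adjusted p 4.01e-06). The related Sprr2d (chromosome 3, 92339140 to 92340873) had 34.1, 27.4, 7.04 and 18.4 CPM in radiated libraries and a single count in 1 of the 4 control libraries, a ratio of 1960.0 with a 95% counting interval of 356 to 78400 (edgeR adjusted p 1.1e-05).

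The stefin A genes encode small inhibitors of cysteine proteases and lie side by side on chromosome 16 (36119946 to 36455392). Of the 9 genes tested in that stretch 7 were higher and 0 lower, and those with hardly any control count could pass the filter on low counts only through radiated skin. Stfa1 (chromosome 16, 36276951 to 36285373) reached 23.1, 39.2, 11.1 and 22.2 CPM in radiated libraries and had no count in any control library, so it was at least 179-fold higher when each control library is set to a floor of 3 counts. Cstdc5 (chromosome 16, 36359382 to 36367748) had 127, 155, 57.9 and 77.8 CPM against 0.423, 0, 0.299 and 0.0384 CPM (log2 fold change 9.16, SE 0.587, edgeR adjusted p 3.89e-06). Both were far above control skin in all 4 radiated libraries.

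Tnc (chromosome 4, 63959785 to 64047015) encodes tenascin C, a matrix glycoprotein of healing wounds. It had 3178, 2655, 3887 and 5155 CPM in radiated and 7.99, 8.45, 5.38 and 8.46 CPM in control libraries (log2 fold change 8.95, SE 0.302, edgeR adjusted p 2.2e-07). The collagenase Mmp13 (chromosome 9, 7272514 to 7283331) was at 61.6, 54.9, 47.6 and 64.2 CPM against 0, 0.0885, 0.171 and 0.0384 CPM (log2 fold change 9.45, SE 0.321, edgeR adjusted p 2.2e-07). Mmp10 (chromosome 9, 7502352 to 7510240), a stromelysin made by keratinocytes at wound edges, had 15.6, 13.8, 18.2 and 30.2 CPM in radiated skin and a single count over the 4 control libraries, a ratio of 1760.0 (95% counting interval 313 to 69000, edgeR adjusted p 2.11e-06). The remaining 3 of the 12 were the hair keratins Krt71, Krt25 and Krt27, whose rise rested mainly on 1 library and is described with the hair follicle.

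**Figure D1:**
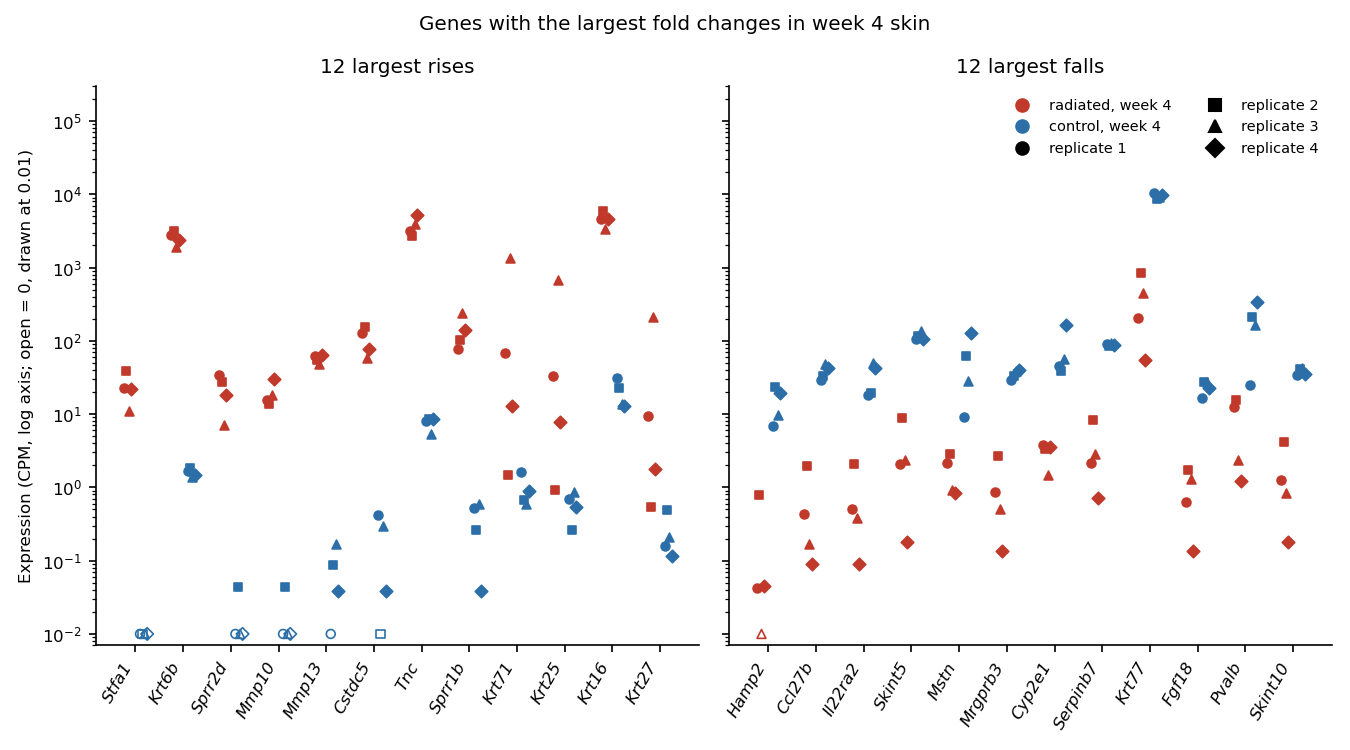
Expression in CPM (log axis) of the 12 genes with the largest rises (left) and the 12 with the largest falls (right) among called genes that reach 5 CPM on average. Red points are radiated and blue points control libraries of week 4, the shape gives the replicate number, and open points at 0.01 stand for 0. Krt71, Krt25 and Krt27 spread widely between radiated libraries, and in the falls radiated replicate 2 (square) is usually the highest red point.

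The 12 largest falls came from several cell types. Krt77 (chromosome 15, 101858731 to 101869705), a keratin of the upper epidermis and sweat ducts, was the most abundant of them, with 208, 829, 453 and 54.6 CPM in radiated and 10288, 8639, 9183 and 9846 CPM in control libraries (log2 fold change -4.62, SE 0.7, edgeR adjusted p 0.000476). Serpinb7 (chromosome 1, 107399655 to 107452689), a protease inhibitor of the upper epidermis, went from 89.8, 83.9, 94.5 and 87.5 CPM in control to 2.18, 8.26, 2.89 and 0.714 CPM in radiated libraries (log2 fold change -4.64, SE 0.544, edgeR adjusted p 9.77e-05). Il22ra2 (chromosome 10, 19621998 to 19634681), a soluble receptor that binds and neutralises interleukin-22, had 0.512, 2.10, 0.377 and 0.0892 CPM against 18.0, 19.6, 50.02 and 43.2 CPM (log2 fold change -5.36, SE 0.685, edgeR adjusted p 0.000166). None of these 3 genes overlapped between the groups.

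Ccl27b (chromosome 4, 42655251 to 42656005), a copy of the skin chemokine gene that draws T cells to the epidermis, had 0.427, 1.94, 0.168 and 0.0892 CPM in radiated and 29.2, 32.6, 47.8 and 42.4 CPM in control skin (log2 fold change -5.80, SE 0.629, edgeR adjusted p 6.27e-05). Hamp2 (chromosome 7, 30922372 to 30924681), a relative of the iron hormone hepcidin, had 0.0427, 0.776, 0 and 0.0446 CPM against 6.93, 23.4, 9.61 and 19.2 CPM (log2 fold change -5.99, SE 0.806, edgeR adjusted p 0.00023). Fgf18 (chromosome 11, 33117430 to 33147400), a growth factor of resting hair follicles, was at 0.64, 1.75, 1.30 and 0.134 CPM against 16.6, 27.5, 27.5 and 23.0 CPM (log2 fold change -4.60, SE 0.484, edgeR adjusted p 5.25e-05). Mrgprb3 (log2 fold change -5.03), an orphan receptor of the Mrgpr family, and Cyp2e1 (-4.66), a cytochrome P450 enzyme, fell as well (edgeR adjusted p 7.99e-05 and 0.000104). The other 4 of the 12 were Skint5 and Skint10, from a family described with the T cells, and the muscle genes Mstn and Pvalb.

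Across these falls radiated replicate 2 had the highest value of its group in 11 of the 12 genes, and radiated replicate 4 had the lowest in 10. On the first principal component the same libraries lay nearest to control skin (replicate 2, at 55.3) and farthest from it (replicate 4, at 92.8). Among the 12 largest rises replicates 2 and 3 were each highest in 4 genes and lowest in 5 and 6.

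Promoter sequence was read for the same 24 genes, since several of the largest rises are textbook targets of AP-1, a dimer of Fos and Jun family proteins that binds TGANTCA. The windows run from 250 bases before to 50 bases after the RefSeq start site (GRCm38.p6), and both strands were searched. The motif lay in 4 of 11 windows (36.4%) of the 12 largest rises, for which 10 genes had a window, and in 5 of 14 (35.7%) of the 12 largest falls, again from 10 genes. A gene can have several windows, and by gene the motif was in 4 of 10 in each set. Ccl27b held it in more than 1 window, in 1 of them 26 bases after the start site. It lay in 6.32% of the windows of all genes tested and in 7.81% of all 32851 windows. Over all called genes that moved by at least 4 on the log2 scale, it was in 26 of 143 windows (18.2%) for rises and 9 of 42 (21.4%) for falls. The share was close in rising and falling genes, and a match is a match of letters only. Windows with TTCNNNGAA, a form bound by STAT proteins, made up 9.09% for rises of at least 4, 4.76% for falls and 7.29% over all genes tested. For a core motif of NF-kB they made up 6.99%, 2.38% and 1.67%.

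The 250 bases before the start site are shown for 4 rising genes and, in the last 2 lines, for 2 falling genes that hold the AP-1 motif, with the motif in capitals. Its first base lies 35 bases before the start in Mmp13, 63 in Mmp10, 193 in Sprr2d, 111 in Sprr1b, 45 in Serpinb7 and 84 in Hamp2. The RefSeq starts of Serpinb7, Hamp2 and, by a few bases, Sprr1b lie inside the span that GENCODE gives the gene.
Mmp13 (chr9:7272264-7272513, plus strand): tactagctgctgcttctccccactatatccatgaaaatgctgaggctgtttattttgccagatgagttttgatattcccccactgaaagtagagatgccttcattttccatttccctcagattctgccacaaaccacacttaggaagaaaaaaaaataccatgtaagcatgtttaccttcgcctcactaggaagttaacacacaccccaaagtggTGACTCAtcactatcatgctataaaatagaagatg
Mmp10 (chr9:7502092-7502341, plus strand): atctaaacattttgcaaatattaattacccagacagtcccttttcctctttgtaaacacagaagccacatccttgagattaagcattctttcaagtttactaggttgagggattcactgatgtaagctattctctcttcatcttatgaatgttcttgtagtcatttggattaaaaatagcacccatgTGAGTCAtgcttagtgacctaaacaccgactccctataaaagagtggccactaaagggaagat
Sprr2d (chr3:92338890-92339139, plus strand): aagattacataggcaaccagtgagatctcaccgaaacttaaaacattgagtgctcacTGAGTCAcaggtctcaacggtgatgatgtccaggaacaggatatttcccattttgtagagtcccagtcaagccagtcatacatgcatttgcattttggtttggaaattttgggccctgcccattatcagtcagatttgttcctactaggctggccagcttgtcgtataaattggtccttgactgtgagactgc
Sprr1b (chr3:92438780-92439029, minus strand): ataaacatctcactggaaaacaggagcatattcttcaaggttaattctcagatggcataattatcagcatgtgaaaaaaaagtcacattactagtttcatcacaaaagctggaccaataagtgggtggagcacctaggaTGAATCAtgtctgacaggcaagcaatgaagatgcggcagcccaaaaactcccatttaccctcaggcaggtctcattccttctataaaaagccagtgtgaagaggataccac
Serpinb7 (chr1:107422439-107422688, plus strand): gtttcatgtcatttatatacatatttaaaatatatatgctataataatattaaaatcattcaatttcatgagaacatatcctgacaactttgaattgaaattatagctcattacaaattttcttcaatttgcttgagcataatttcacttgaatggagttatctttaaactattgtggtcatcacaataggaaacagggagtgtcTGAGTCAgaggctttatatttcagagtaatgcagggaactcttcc
Hamp2 (chr7:30924182-30924431, minus strand): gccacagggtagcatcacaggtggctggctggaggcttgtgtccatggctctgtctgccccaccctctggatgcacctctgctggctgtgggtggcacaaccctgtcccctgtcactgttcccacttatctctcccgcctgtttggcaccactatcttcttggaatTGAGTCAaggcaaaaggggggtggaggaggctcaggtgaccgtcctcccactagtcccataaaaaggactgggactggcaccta

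In the epidermis, most keratins of injury rose, most genes of the normal upper layers fell, and basal cell genes went in both directions. Of 5 stress and wound keratins 4 rose and 0 fell, with a median log2 fold change of 4.69 against 0.02 over all genes tested, and with the replicate block 1 was lower. Krt6a was at 3768 ± 472 CPM in radiated and 147 ± 19.1 CPM in control skin (mean ± SD over 4 libraries). Of 12 genes of basal cells 3 rose and 5 fell, against a background of 24.2% each way. The summed level of the list was 14733 ± 1277 CPM in radiated, 19140 ± 1841 CPM in control and 14004 ± 4209 CPM in sham skin (mean ± SD). Krt14 (chromosome 11, 100203162 to 100207548), the main basal keratin, rose from 1920.2, 1955, 1595 and 1448 CPM in control to 6707, 7735, 6431 and 7181 CPM in radiated libraries (log2 fold change 2.03, SE 0.124, edgeR adjusted p 3.4e-06), whereas its partner Krt5 was at 3175, 3833, 4152 and 3313 CPM in radiated and 5938, 7849.9, 6101 and 6046 CPM in control libraries (log2 fold change -0.83, SE 0.129, edgeR adjusted p 0.000541). Krt14 and Krt5 thus moved in opposite directions, each without overlap between the groups.

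Col17a1, a hemidesmosome collagen, fell (732 against 2088 CPM, adjusted p 0.000288 in edgeR), as did Trp63, the master regulator of stratified epithelium (253 against 658 CPM, adjusted p 1.93e-05 in edgeR). The steepest fall was that of Krt15, a keratin of resting basal cells and of hair follicle stem cells, at 127, 444, 179 and 20.3 CPM against 3540.3, 4593, 4733 and 4398 CPM (log2 fold change -4.48, SE 0.746, edgeR adjusted p 0.000841). The integrins Itga6 and Itgb4, partners in hemidesmosomes, had log2 fold changes of 0.07 and -0.06 and did not pass the test.

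Of 12 genes of the layers above, 0 rose and 10 fell (median -1.75). Krt10 (chromosome 11, 99385254 to 99389364) was at 1299, 2268, 1792 and 202 CPM in radiated and 9087, 8039, 8296 and 8183 CPM in control libraries (log2 fold change -2.59, SE 0.559, edgeR adjusted p 0.0038). Its partner Krt1 had 901, 1362, 707 and 152 CPM against 634, 533, 509 and 495 CPM and did not pass the test (log2 fold change 0.53, SE 0.483, edgeR adjusted p 0.392), though it was higher without radiated replicate 4. Ahnak (chromosome 19, 8989284 to 9076914), a giant scaffold protein found in many cell types and in no list, fell from 16877, 17362, 17464 and 16933 CPM to 7806, 9031, 7826 and 8296 CPM (log2 fold change -1.05, SE 0.092, edgeR adjusted p 1.79e-05). The desmosome genes Dsp (chromosome 13, 38151294 to 38198577; log2 fold change -1.01, SE 0.14, edgeR adjusted p 0.000274) and Dsg1a (log2 fold change -1.90, SE 0.217, edgeR adjusted p 8.32e-05) fell, and so did Sbsn, a secreted protein of the upper epidermis (log2 fold change -2.41, SE 0.18, edgeR adjusted p 7.6e-06). Radiated replicate 2 was highest in 9 and radiated replicate 4 lowest in 9 of the 10 falling genes, the order seen in the largest falls.

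The cornified envelope list divided by gene family. All 25 listed genes were matched and 24 passed the filter on low counts, of which 16 rose and 5 fell. Of the 16 rises 11 (the Lce3 genes, Sprr1b, Sprr2a3, Sprr2d, Sprr2h and Sprr2i) could be tested only through radiated skin, so the count describes the list. The median log2 fold change, 4.13, becomes 3.47 when the 4 genes with no control count are set to their bound. Those that rose were 6 of the 7 small proline-rich proteins of the list (Sprr3 was below the filter), all 6 members of the Lce3 group, which is known to be induced by barrier injury, Rptn (281 against 5.16 CPM), Tgm3 (40.3 against 7.13 CPM), Tgm1 and Cnfn. Those that fell were loricrin (Lor, 14.2 against 68.6 CPM), involucrin (Ivl, 24.4 against 89.4 CPM), the Lce1 genes Lce1a1 and Lce1c, and Flg2. Flg2 (chromosome 3, 93197278 to 93221391), a relative of filaggrin, was the most abundant of the falls, with 200.3, 509.9, 362 and 15.8 CPM in radiated and 6023, 4203, 5473 and 4880.0 CPM in control libraries (log2 fold change -4.24, SE 0.799, edgeR adjusted p 0.00177). Filaggrin itself (Flg) had 2570.4, 3906, 2344 and 348 CPM against 1275, 799.9, 1069.8 and 979.8 CPM and did not pass (log2 fold change 1.16, SE 0.536, edgeR adjusted p 0.101), though it was higher without radiated replicate 4. Most of these genes sit in the epidermal differentiation complex (chromosome 3, 90511034 to 93564643), where 33 of 70 genes tested were higher and 15 lower.

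**Figure D2:**
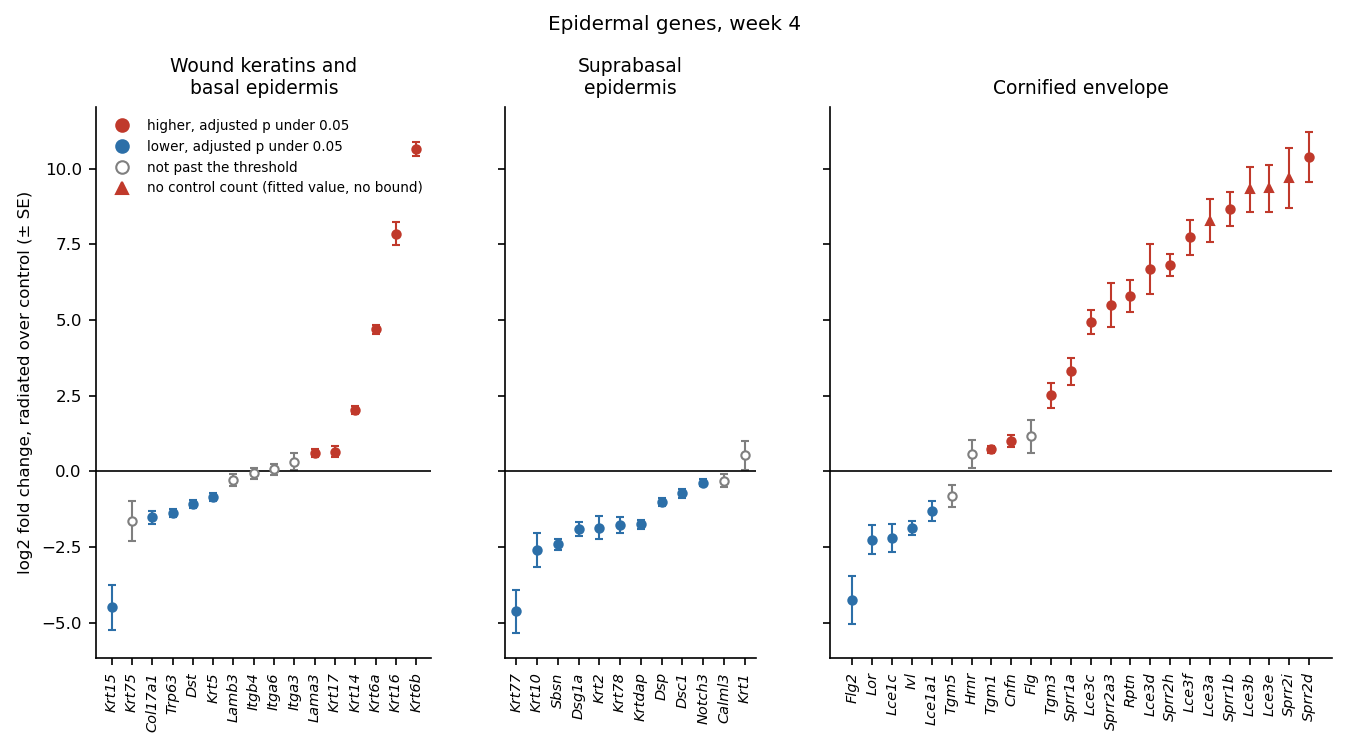
Log2 fold change of radiated over control skin (bars, SE) for wound and most basal keratinocyte genes, suprabasal genes and cornified envelope genes, each sorted by value. Red points are called higher, blue called lower and open grey points did not pass. Triangles mark genes with no control count. In the suprabasal panel no gene is called higher, and the right panel runs from Flg2 at -4.24 to Sprr2d at 10.38.

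Of 16 proteases that shed the outer layer and their inhibitors 9 rose and 2 fell. The kallikreins Klk6 (92.0 ± 37.0 CPM in radiated and 2.57 ± 1.40 CPM in control skin) and Klk13 (64.3 ± 13.8 CPM in radiated and 0.896 ± 0.411 CPM in control skin) rose (edgeR adjusted p 1.44e-05 and 1.36e-06), while Klk7, the classic desquamation protease, was at 239.5 against 258 CPM and did not pass. Spink5, the inhibitor lost in Netherton syndrome, fell (log2 fold change -1.43, SE 0.135, edgeR adjusted p 2.66e-05). Among 14 enzymes of barrier lipids 2 rose and 7 fell. Ugcg, which makes glucosylceramides, rose (log2 fold change 1.04, SE 0.0911, edgeR adjusted p 1.8e-05), and Sptlc3 (log2 fold change -2.58, SE 0.212, edgeR adjusted p 1.3e-05) and the lipoxygenase gene Alox12e (log2 fold change -3.45, SE 0.671, edgeR adjusted p 0.00213) fell. With 1 estimate of spread over all 35 libraries 4 of these lipid enzymes were lower.

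Genes of white blood cells and of innate defence mostly rose. Of 12 alarmins and antimicrobial proteins tested, which keratinocytes and neutrophils both make, 11 rose, 6 of them testable only through radiated skin, and 1 fell. S100a9, a subunit of calprotectin, was at 154, 118, 39.1 and 137 CPM in radiated and 0.37, 0.354, 1.28 and 0.654 CPM in control libraries (log2 fold change 7.37, SE 0.554, edgeR adjusted p 7.66e-06). Saa3, an acute phase protein, went from 9.90, 3.41, 3.97 and 3.23 CPM to 377, 196, 343 and 398 CPM (log2 fold change 6.03, SE 0.428, edgeR adjusted p 6.15e-06). Lcn2 (47.1 against 1.41 CPM), which starves bacteria of iron, and Slpi (34.1 against 0.432 CPM), an inhibitor of neutrophil elastase, rose too (edgeR adjusted p 2.06e-05 and 3.94e-06).

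Of 12 neutrophil genes tested, out of 15 listed, 11 rose and 0 fell. Of the rises 6 could be tested only through radiated skin, among them Fpr1 with no control count. The median log2 fold change, 5.01, becomes 4.80 with Fpr1 at its bound. Csf3r, the receptor for G-CSF, had 115, 70.4, 88.9 and 126 CPM against 2.43, 4.33, 2.78 and 2.11 CPM (log2 fold change 5.11, SE 0.272, edgeR adjusted p 2.11e-06), and Cxcr2, the receptor for the neutrophil chemokines, 95.4, 65.6, 52.5 and 85.3 CPM against 7.41, 7.03, 9.48 and 6.77 CPM (log2 fold change 3.29, SE 0.207, edgeR adjusted p 3.65e-06). Mpo, made by immature cells in the marrow, was at 1.61 against 1.01 CPM and did not pass. The summed level of the 5 defining markers (Csf3r, Cxcr2, Retnlg, Mmp8 and Ly6g) was 141 to 235 CPM in radiated and 9.73 to 12.7 CPM in control libraries, and 8.28 to 9.58 CPM in sham skin.

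Of 15 genes of monocytes and recruited macrophages 14 rose and 0 fell (median 2.44). Cd68, a lysosomal protein of macrophages, was at 117, 71.3, 104 and 118 CPM against 12.2, 12.7, 9.44 and 8.34 CPM (log2 fold change 3.28, SE 0.201, edgeR adjusted p 3.4e-06), and Itgam, an integrin of myeloid cells, at 161, 103, 139 and 166 CPM against 11.4, 17.9, 18.7 and 15.7 CPM (log2 fold change 3.17, SE 0.198, edgeR adjusted p 3.55e-06). Among 14 genes of resident macrophages 10 rose and 1 fell. Mrc1, the mannose receptor, rose from 72.7, 122, 83.3 and 81.7 CPM to 534, 393, 539.5 and 613 CPM (log2 fold change 2.54, SE 0.189, edgeR adjusted p 7.41e-06), and Mgl2, a lectin of dermal macrophages and dendritic cells, fell (log2 fold change -2.15, SE 0.446, edgeR adjusted p 0.0031).

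Genes of antigen presentation had a median near that of all genes. Of 15 tested 5 rose and 1 fell, with a median of 0.16. The class II genes H2-Aa, H2-Ab1 and H2-Eb1 had log2 fold changes of 0.07, 0.12 and 0.10 and did not pass. Cd207, langerin, the defining protein of Langerhans cells, fell to 0.683, 0.543, 0.377 and 0.892 CPM from 5.50, 4.16, 4.91 and 5.19 CPM (log2 fold change -2.97, SE 0.269, edgeR adjusted p 2.16e-05), and Ccr7, which guides dendritic cells to lymph nodes, rose from 0, 0.0442, 0.0427 and 0.0769 CPM to 0.811, 1.24, 1.68 and 1.34 CPM (log2 fold change 4.70, SE 0.523, edgeR adjusted p 7.13e-05).

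T cell genes went in both directions. Of 14 tested 8 rose and 2 fell: Cd4 had 41.6, 27.2, 35.4 and 28.1 CPM against 3.60, 5.22, 5.60 and 3.50 CPM (log2 fold change 2.89, SE 0.209, edgeR adjusted p 6.53e-06) and Foxp3, the regulatory T cell factor, 8.15, 8.50, 6.83 and 8.12 CPM against 3.49, 2.43, 4.83 and 4.42 CPM (log2 fold change 1.06, SE 0.215, edgeR adjusted p 0.00271), while Cd3e fell (log2 fold change -1.23, SE 0.167, edgeR adjusted p 0.000244) and Cd8a was at 3.37 against 3.33 CPM. Gata3, the other fall, is also made by hair follicle keratinocytes. Mouse epidermis holds its own γδ T cells, which depend on Skint proteins of keratinocytes. Of 15 genes of these cells and of the Skint family 2 rose and 11 fell (median -2.73), and 5 of the falls could be tested only through control skin. Over the whole Skint stretch (chromosome 4, 111919392 to 114245028) 0 of 15 genes were higher and 14 lower. Skint5 (chromosome 4, 113477891 to 113999503) had 2.09, 8.81, 2.35 and 0.178 CPM in radiated and 104, 117, 135 and 105 CPM in control libraries (log2 fold change -5.07, SE 0.693, edgeR adjusted p 0.000252), and Skint10 (chromosome 4, 112711147 to 112774866) 1.28, 4.11, 0.838 and 0.178 CPM against 34.2, 40.6, 42.7 and 34.9 CPM (log2 fold change -4.54, SE 0.6, edgeR adjusted p 0.000205).

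Mast cells, which store histamine and proteases, had 10 of 12 genes higher and 1 lower. Mcpt4, a chymase of connective tissue mast cells, had 43.0, 31.4, 41.5 and 47.6 CPM against 10.6, 14.2, 11.2 and 15.0 CPM (log2 fold change 1.68, SE 0.165, edgeR adjusted p 3.49e-05), and Hdc, the enzyme that makes histamine, 67.1 against 4.31 CPM. Mrgprb2, a mast cell receptor for secretagogues, was the fall (log2 fold change -2.81, SE 0.438, edgeR adjusted p 0.000565). B cell genes were scarce: 5 of 10 passed the filter on low counts, of which 1 rose and 0 fell.

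Signals that draw and drive these cells mostly rose. Of 29 chemokine genes tested 18 rose, 6 of them testable only through radiated skin, and 2 fell. Cxcl5, a ligand of Cxcr2, was at 263, 133, 116 and 206 CPM in radiated and 5.82, 3.85, 6.02 and 4.07 CPM in control libraries (log2 fold change 5.20, SE 0.312, edgeR adjusted p 3.24e-06), and Cxcl2, another, at 32.9, 22.9, 18.0 and 44.8 CPM against 0.159, 0.885, 0.683 and 0.461 CPM (log2 fold change 5.73, SE 0.434, edgeR adjusted p 7.97e-06). Ccl2 (9.22 against 1.56 CPM) and Ccl7 (21.8 against 3.93 CPM), which draw monocytes through Ccr2, rose as well (edgeR adjusted p 0.000148 and 0.000187). The falls were Ccl22 (2.73 against 5.66 CPM) and the epidermal Ccl27a (6.06 against 83.0 CPM). Of the ligands of Cxcr3, a chemokine receptor of T cells, Cxcl9 passed (1.16 against 0.649 CPM, edgeR adjusted p 0.0357) but kept the call in 5 of 15 alternatives and lost it with the block, and Cxcl10 (8.47 against 3.27 CPM) and Cxcl11 (2.18 against 1.86 CPM) did not pass, though Cxcl10 did without control replicate 1.

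Of 17 genes of the interleukin-1 family and its receptors 9 rose and 2 fell. Il1b was at 120.0, 65.0, 46.8 and 93.9 CPM against 3.60, 4.78, 3.12 and 1.35 CPM (log2 fold change 4.69, SE 0.41, edgeR adjusted p 1.8e-05). Il33, an alarm signal of damaged barrier cells, had 119, 152, 113 and 155 CPM against 37.3, 62.0, 63.6 and 39.7 CPM (log2 fold change 1.42, SE 0.195, edgeR adjusted p 0.000266), and its receptor Il1rl1 rose more steeply, from 6.24, 9.24, 9.53 and 6.88 CPM to 200.1, 211, 179.9 and 411 CPM (log2 fold change 4.98, SE 0.307, edgeR adjusted p 3.45e-06). Il1rn, the natural antagonist, was at 47.4 against 45.5 CPM and did not pass.

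In the IL-6, IL-17 and IL-20 families 9 of 16 genes tested rose and 4 fell, and 4 of 20 listed genes were below the filter, Il20 and Il22 among them. The ligand Il19 had 3.20, 3.41, 1.17 and 7.14 CPM in radiated libraries and a single count over the control libraries. The related ligand Il24 had 1.66, 2.72, 4.32 and 8.92 CPM in radiated libraries and no count in control libraries, at least 32.9-fold higher against a floor of 3 counts per library. Of the 9 rises 4 (Il19, Il24, Il6 and Osm) could pass the filter only through radiated skin, and the fall of Il22ra2 only through control skin. The receptor subunits Il20ra (5.03 against 36.8 CPM), Il20rb (23.3 against 150.02 CPM) and Il22ra1 (8.55 against 31.8 CPM) fell (edgeR adjusted p 0.000798, 6.88e-06 and 8.66e-05). Il6 went from 0.159, 0.133, 0.384 and 0.154 CPM to 9.78, 13.7, 12.2 and 34.9 CPM (log2 fold change 6.37, SE 0.561, edgeR adjusted p 1.86e-05).

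Interferon-stimulated genes rose in 24 and fell in 1 (Usp18, 9.42 against 13.2 CPM, a call kept in 5 of 15 alternatives and lost with the block) of 29 cases (median 1.42). Oas3, a sensor of double-stranded RNA, was at 83.2, 44.2, 65.1 and 76.5 CPM in radiated and 3.39, 15.7, 6.49 and 6.96 CPM in control libraries (log2 fold change 3.05, SE 0.411, edgeR adjusted p 0.000232), and Irf7, the amplifier of the type I response, at 64.5, 40.1, 55.3 and 52.2 CPM against 6.24, 19.7, 10.9 and 10.0 CPM (log2 fold change 2.18, SE 0.306, edgeR adjusted p 0.000293). Control replicate 2 had the highest Irf7 of its group. Of 19 complement genes 17 rose and 2 fell (1 with the block). C1qb, made by macrophages, had 347, 256, 328 and 272 CPM against 23.7, 56.4, 44.3 and 36.6 CPM (log2 fold change 2.91, SE 0.241, edgeR adjusted p 1.34e-05), and Cfb, of the alternative pathway, 192, 160.3, 211 and 211 CPM against 23.9, 26.4, 15.2 and 16.9 CPM (log2 fold change 3.24, SE 0.191, edgeR adjusted p 3.15e-06). Cfd, also an adipocyte gene, fell (log2 fold change -1.45, SE 0.346, edgeR adjusted p 0.00659).

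**Figure D3:**
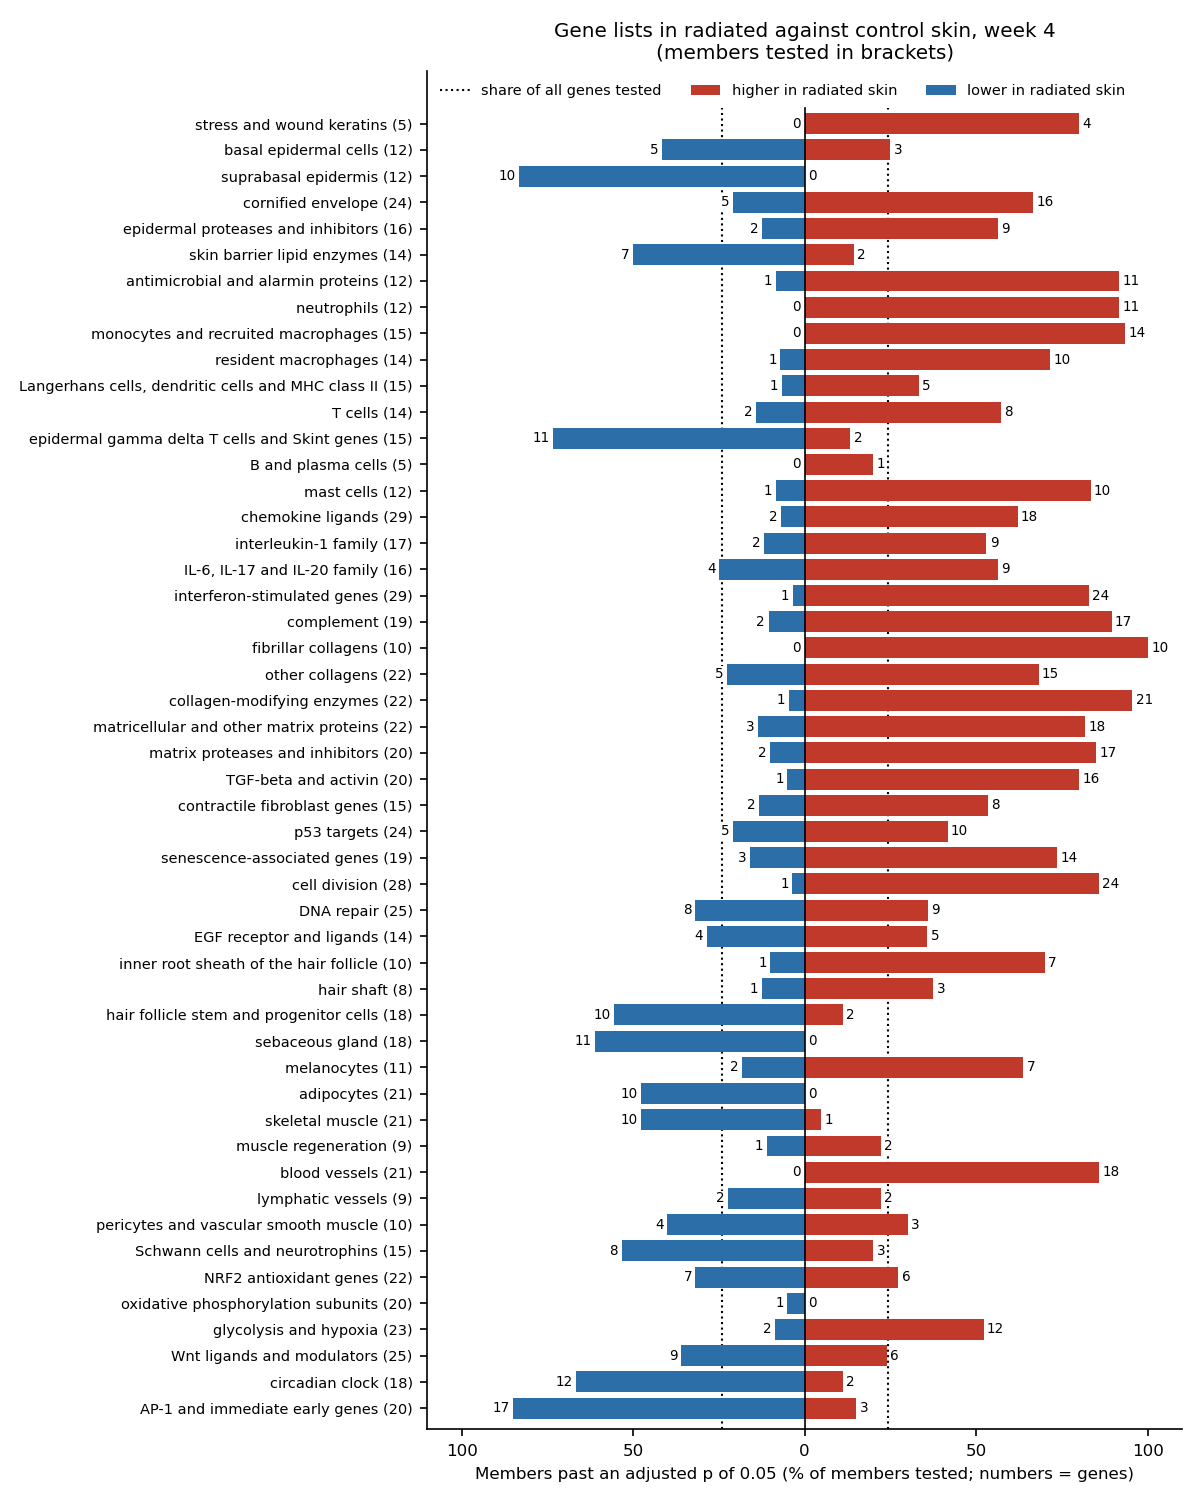
Share of the tested members of each of 50 gene lists that was called higher (red, right) or lower (blue, left) in radiated skin, with the number of genes at the end of each bar and the members tested in brackets. Dotted lines mark the share over all genes tested, 24.2% on each side. Fibrillar collagens reach furthest to the right with all 10 tested, and AP-1 and immediate early genes furthest to the left with 17 of 20.

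In the dermis, the fibre-forming collagens Col1a1, Col3a1 and Col1a2 were among the 6 genes with the largest rises in mean CPM. All 10 fibrillar collagens tested, of 11 listed, rose (median 3.19). With the replicate block 9 did, without Col11a2. Col1a1 (chromosome 11, 94936224 to 94953042) had 18203, 14324, 11600 and 14834 CPM in radiated and 1159, 1156, 456 and 678 CPM in control libraries (log2 fold change 4.10, SE 0.321, edgeR adjusted p 9.54e-06), Col3a1 (chromosome 1, 45311538 to 45349706) had 16171, 13075, 9691 and 13847 CPM against 1420.0, 1351, 503 and 738 CPM (log2 fold change 3.73, SE 0.347, edgeR adjusted p 2.52e-05), and Col1a2 (chromosome 6, 4504814 to 4541544) had 10611, 8332, 5124 and 8052 CPM against 995, 1221, 554 and 824 CPM (log2 fold change 3.17, SE 0.287, edgeR adjusted p 2.16e-05). Sham skin lay between, with 2701, 4401 and 1940.2 CPM of Col1a1. The summed level of the 11 genes was 50359, 39903, 29785 and 41399 CPM in radiated, 4137, 4289, 1852 and 2599 CPM in control and 8347, 11801 and 5357 CPM in sham libraries.

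Of 22 other collagens 15 rose and 5 fell. Col12a1, which decorates type I fibres under strain, rose from 82.9, 87.4, 89.9 and 72.0 CPM to 3304, 1969, 1316 and 1941 CPM (log2 fold change 4.69, SE 0.276, edgeR adjusted p 3.15e-06). Basement membrane collagen type IV split by chain: Col4a1 (2212 against 408 CPM) and Col4a2 (1008 against 172 CPM), found in most basement membranes, rose, while the epidermal chains Col4a5 (13.2 against 56.5 CPM) and Col4a6 (4.04 against 28.1 CPM) fell (edgeR adjusted p 9.07e-06, 4.88e-06, 0.000258 and 4.45e-05). Enzymes that modify and cross-link collagen rose in 21 and fell in 1 of 22 cases. The cross-linker Lox had 164, 139, 161 and 174 CPM against 12.6, 20.0, 23.4 and 32.7 CPM (log2 fold change 2.85, SE 0.25, edgeR adjusted p 1.82e-05), and Plod2, the lysyl hydroxylase of fibrotic cross-links, 47.2, 38.4, 40.3 and 35.2 CPM against 7.83, 7.83, 4.06 and 5.27 CPM (log2 fold change 2.70, SE 0.215, edgeR adjusted p 1.07e-05).

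Other matrix proteins rose in 18 and fell in 3 of 22 cases. Postn, periostin, went from 247, 256, 144 and 170.4 CPM to 1330.1, 1023, 490.4 and 659.6 CPM (log2 fold change 2.11, SE 0.317, edgeR adjusted p 0.000458), and Spp1, osteopontin, from 1.32, 0.442, 0.897 and 1.08 CPM to 136, 91.1, 35.4 and 96.8 CPM (log2 fold change 6.60, SE 0.481, edgeR adjusted p 6.88e-06). Ccn2, a matricellular gene often used as a readout of YAP and TGF-beta activity, fell (20.1, 26.7, 25.0 and 17.6 against 35.3, 61.4, 49.7 and 51.4 CPM, log2 fold change -1.14, SE 0.184, edgeR adjusted p 0.000701). Matrix proteases and their inhibitors rose in 17 and fell in 2 of 20 cases, and 3 of the rises (Mmp10, Mmp13 and Timp1) could be tested only through radiated skin. Mmp3 was at 371, 247, 462 and 673 CPM against 17.5, 17.8, 16.0 and 9.69 CPM (log2 fold change 4.86, SE 0.339, edgeR adjusted p 5.52e-06). The inhibitors parted: Timp1 rose (log2 fold change 7.62, SE 0.506, edgeR adjusted p 4.38e-06), and Timp3 (log2 fold change -1.57, SE 0.157, edgeR adjusted p 3.87e-05) and Timp4 (log2 fold change -2.26, SE 0.337, edgeR adjusted p 0.000422) fell.

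Of 20 TGF-beta and activin genes 16 rose and 1 fell, mostly by small amounts (median 0.66). Inhba, the activin A subunit, had 509, 527, 437 and 807 CPM against 29.3, 19.2, 12.3 and 14.0 CPM (log2 fold change 4.94, SE 0.324, edgeR adjusted p 4.17e-06), and Tgfb1 146, 122, 190.4 and 154 CPM against 45.8, 43.4, 44.4 and 46.8 CPM (log2 fold change 1.77, SE 0.128, edgeR adjusted p 6.76e-06). Tgfb2 and Tgfb3 did not pass, at log2 fold changes of -0.44 and 0.25. The list of contractile fibroblast genes split by role, with 8 of 15 higher and 2 lower. Lrrc15, a surface protein of activated fibroblasts, rose from 1.96, 1.64, 1.75 and 1.46 CPM to 167, 89.7, 104 and 65.9 CPM (log2 fold change 5.98, SE 0.316, edgeR adjusted p 2.11e-06), and Pdgfra, a PDGF receptor of fibroblasts, from 95.5, 113, 108 and 114 CPM to 465, 384, 391 and 550.3 CPM (log2 fold change 2.06, SE 0.131, edgeR adjusted p 3.89e-06). The contractile genes themselves were not among the rises: Acta2, smooth muscle actin, was at 57.3, 61.8, 63.8 and 63.0 CPM in radiated and 82.3, 61.3, 59.8 and 85.6 CPM in control libraries (log2 fold change -0.23, SE 0.131, edgeR adjusted p 0.177), and Cnn1 fell (log2 fold change -1.48, SE 0.229, edgeR adjusted p 0.000526). Smooth muscle of vessels and hair muscles makes both.

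Genes of cell division mostly rose, by small amounts. Of 28 tested 24 rose and 1 fell, with a median of 0.88. The summed level of the list was 1246 ± 106 CPM in radiated, 777 ± 191 CPM in control and 1083 ± 299 CPM in sham skin (mean ± SD). Sham skin (1039, 808 and 1401 CPM) thus reached the radiated level in part of its libraries, with no test. Plk1, a mitotic kinase, was at 16.1, 15.1, 25.4 and 17.0 CPM against 8.84, 7.43, 3.80 and 4.19 CPM (log2 fold change 1.61, SE 0.291, edgeR adjusted p 0.00137), and Mcm5, of the replication helicase, at 30.5, 32.8, 36.2 and 34.7 CPM against 13.3, 15.0, 11.4 and 11.0 CPM (log2 fold change 1.41, SE 0.122, edgeR adjusted p 1.66e-05). Mki67 had 224, 237, 278 and 210.0 CPM against 226, 186, 96.5 and 81.3 CPM and did not pass (log2 fold change 0.70, SE 0.293, edgeR adjusted p 0.0752), though it did in 4 of 15 alternatives, the replicate block among them. The 1 listed gene that fell did not pass with the block. With 1 estimate of spread over all 35 libraries 14 of the 28 were higher.

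Direct targets of p53, the classic arm of the early DNA damage response, went in both directions at 4 weeks. Of 24 tested 10 rose and 5 fell (median 0.24). Bax (28.9 ± 2.01 CPM in radiated and 11.2 ± 1.62 CPM in control skin, adjusted p 2.45e-05 in edgeR) and Pmaip1 (35.6 ± 2.96 CPM in radiated and 11.8 ± 2.14 CPM in control skin, adjusted p 1.63e-05 in edgeR), which promote apoptosis, rose. Cdkn1a, p21, was slightly lower, with 427, 326, 429 and 354 CPM in radiated and 505, 491, 463 and 472 CPM in control libraries (log2 fold change -0.32, SE 0.105, edgeR adjusted p 0.0291), a call that was lost in 7 of the alternatives. Perp (log2 fold change -1.18, SE 0.133, edgeR adjusted p 7.36e-05), also a desmosome protein, and Btg2 (log2 fold change -1.47, SE 0.25, edgeR adjusted p 0.000935) fell. Of 25 DNA repair genes 9 were higher and 8 lower, against a background of 24.2% each way. Brca1 (14.1 against 6.13 CPM) and Fanca (9.36 against 4.60 CPM) rose and Xpc (25.6 against 54.0 CPM), which finds helix-distorting damage, fell (edgeR adjusted p 0.00191, 0.000517 and 1.85e-05). Both counts depend on the fit: with 35 libraries 5 p53 targets and 4 repair genes were higher, and with total-count scaling 3 and 4 were lower. With the replicate block 5 repair genes were lower.

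Genes associated with senescence, which overlap with wound and inflammation genes, rose in 14 and fell in 3 of 19 cases. Hmga2, a chromatin protein, had 14.6, 12.6, 17.0 and 40.3 CPM against 1.43, 1.59, 2.35 and 1.42 CPM (log2 fold change 3.64, SE 0.407, edgeR adjusted p 7.38e-05). Lmnb1, a lamin that is usually lost in senescent cells, rose (79.4 against 32.8 CPM, edgeR adjusted p 7.78e-05). Among 14 genes of the EGF receptor family 5 rose and 4 fell, against a background of 24.2% each way. The ligand Nrg1 went from 7.67, 6.19, 8.84 and 6.80 CPM to 66.5, 85.2, 113 and 199.7 CPM (log2 fold change 3.98, SE 0.339, edgeR adjusted p 1.51e-05) and Areg from 14.0, 8.54, 8.84 and 6.54 CPM to 25.7, 30.2, 56.5 and 63.0 CPM (log2 fold change 2.22, SE 0.334, edgeR adjusted p 0.000455), while the ligand Btc (8.76 against 57.4 CPM) and the receptors Erbb2 (62.0 against 142 CPM) and Erbb3 (130.2 against 288 CPM) fell (edgeR adjusted p 3.4e-06, 0.000629 and 0.000487). Egfr was at 235 against 228 CPM and did not pass.

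Keratins of the growing hair follicle were low in control skin and uneven in radiated skin. Krt71 (chromosome 15, 101733949 to 101743109), a keratin of the inner root sheath that is made only in growing follicles, had 67.8, 1.47, 1335 and 13.0 CPM in radiated, 1.64, 0.663, 0.598 and 0.884 CPM in control and 499.7, 4968 and 5148 CPM in sham libraries (log2 fold change 8.58, SE 2.06, edgeR adjusted p 0.00675). Krt25 (chromosome 11, 99315516 to 99322951) had 32.8, 0.931, 669 and 7.90 CPM against 0.688, 0.265, 0.854 and 0.538 CPM (log2 fold change 8.24, SE 2.02, edgeR adjusted p 0.00757) and Krt27 (chromosome 11, 99345565 to 99351104) 9.31, 0.543, 213 and 1.78 CPM against 0.159, 0.487, 0.214 and 0.115 CPM (log2 fold change 7.83, SE 2.05, edgeR adjusted p 0.0105). Radiated replicate 3 was far above the next library, replicate 1, in each of these genes, and radiated replicate 2 was within the control range for Krt71 and just above it for Krt25 and Krt27. Without replicate 3 the log2 fold changes fell to 4.90, 4.58 and 3.99 (edgeR adjusted p 0.00606, 0.00609 and 0.00878). Of 10 inner root sheath genes tested, of 13 listed, 7 rose and 1 fell, and 3 of the rises (Krt25, Krt27 and Padi3) could be tested only through radiated skin. Without radiated replicate 3 and with the block 4 rose, and with DESeq2, which gave Krt71, Krt25 and Krt27 no adjusted p, 0 were called higher. The fall was Gata3 (105, 211, 209 and 70.0 against 1063, 1272, 1214 and 1078 CPM, log2 fold change -2.95, SE 0.331, edgeR adjusted p 7.38e-05), a factor also of epidermis and T cells. Hair shaft genes rose in 3 and fell in 1 of 8 tested, with 11 of 19 below the filter, and 0 (DESeq2) to 12 (no filter) rose in the alternatives, with 1 under the block.

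Markers of follicle stem and progenitor cells fell more often than they rose, 10 against 2 of 18, with 1 rise under the block. Lgr6, of stem cells above the bulge, was at 14.5, 33.9, 18.5 and 9.06 CPM in radiated and 69.9, 108, 107 and 106 CPM in control libraries (log2 fold change -2.36, SE 0.35, edgeR adjusted p 0.000423), Lhx2, a stem cell factor, at 3.03, 6.94, 10.0 and 2.01 CPM against 30.7, 36.4, 30.6 and 29.1 CPM (log2 fold change -2.52, SE 0.416, edgeR adjusted p 0.000814) and Sox9 at 72.2, 88.4, 147 and 58.0 CPM against 241, 254, 211 and 208 CPM (log2 fold change -1.31, SE 0.249, edgeR adjusted p 0.00181). The groups did not overlap in these 3 genes. Axin2, a Wnt target, fell as well (log2 fold change -2.24, SE 0.192, edgeR adjusted p 1.62e-05).

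The sebaceous gland list had 0 of 18 genes higher and 11 lower (median -1.02). Scd3, a desaturase found almost only in sebocytes, was at 9.52, 35.5, 10.5 and 7.85 CPM in radiated and 384, 362, 174 and 274 CPM in control libraries (log2 fold change -4.23, SE 0.519, edgeR adjusted p 0.000131). Mc5r, the sebocyte melanocortin receptor, had 3.46, 5.08, 8.76 and 2.23 CPM against 30.1, 13.4, 7.65 and 17.3 CPM (log2 fold change -1.80, SE 0.479, edgeR adjusted p 0.0115). Without radiated replicate 1, and likewise without radiated replicate 4, 7 sebaceous genes were lower. Pigment cell genes moved the other way, 7 of 11 higher and 2 lower (1 lower with the block), from low levels. Tyrp1, a melanin enzyme, had 8.45, 3.57, 12.5 and 9.50 CPM against 0.953, 1.24, 1.15 and 1.58 CPM (log2 fold change 2.78, SE 0.37, edgeR adjusted p 0.000216), and with 35 libraries 2 genes were higher. Sham skin had 6.93, 1.91 and 40.6 CPM of Tyrp1.

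Fat and muscle lie under the dermis, and their RNA varied with the single library. Of 21 adipocyte genes 0 rose and 10 fell (median -0.85). Car3, an abundant fat enzyme, had 188, 182, 103 and 92.8 CPM in radiated and 469, 633, 300.1 and 944 CPM in control libraries (log2 fold change -2.05, SE 0.366, edgeR adjusted p 0.00128). Adiponectin (Adipoq), the defining hormone of adipocytes, was at 56.6, 50.05, 31.6 and 34.5 CPM against 135, 64.0, 33.5 and 97.6 CPM and did not pass (log2 fold change -0.93, SE 0.376, edgeR adjusted p 0.066), though it was lower in 4 of 15 alternatives, the replicate block among them. Plin1 (136 against 193 CPM) and Fabp4 (125 against 163 CPM) did not pass either. The falls included enzymes of fat synthesis that sebocytes share, such as Fasn (log2 fold change -1.23, SE 0.347, edgeR adjusted p 0.0151).

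Of 21 skeletal muscle genes 1 rose and 10 fell. Myh4 (chromosome 11, 67238029 to 67260446), the myosin of the fastest fibres, was at 459, 509, 62.1 and 72.9 CPM in radiated and 561, 5969.7, 3156 and 8271 CPM in control libraries (log2 fold change -4.02, SE 0.95, edgeR adjusted p 0.00626). The fast fibre genes Pvalb (chromosome 15, 78191114 to 78206400; 12.4, 15.6, 2.39 and 1.20 against 25.2, 214, 166 and 335 CPM, log2 fold change -4.54, SE 0.924, edgeR adjusted p 0.00275) and Actn3 (log2 fold change -4.22, SE 0.851, edgeR adjusted p 0.00263) fell, and so did Mstn (chromosome 1, 53061640 to 53068079), myostatin, the brake on muscle growth (2.18, 2.83, 0.922 and 0.848 against 9.10, 63.0, 28.4 and 129 CPM, log2 fold change -5.07, SE 0.814, edgeR adjusted p 0.000678). Titin (Ttn), found in all fibres, was at 8653 against 16279 CPM and did not pass (log2 fold change -0.91, SE 0.534, edgeR adjusted p 0.188), though it was lower without control replicate 1. The summed level of the list was 5294, 41707, 36233 and 61033 CPM in control replicates 1 to 4 and 16458, 19907, 9447 and 11697 CPM in radiated replicates 1 to 4, so control replicate 1 was below all radiated libraries. Without control replicate 1, 17 muscle genes were lower, and with the block 4 were lower and 0 higher. Myh3, embryonic myosin of regenerating fibres, rose from 0, 0.133, 0.171 and 0.0384 CPM to 17.1, 1.44, 0.461 and 2.77 CPM (log2 fold change 5.88, SE 1.32, edgeR adjusted p 0.00466). It could be tested only through radiated skin. Of 9 regeneration genes 2 rose and 1 fell, against a background of 24.2% each way. The part of the amount of muscle and fat in each piece of skin in the other results was not tested.

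**Figure D4:**
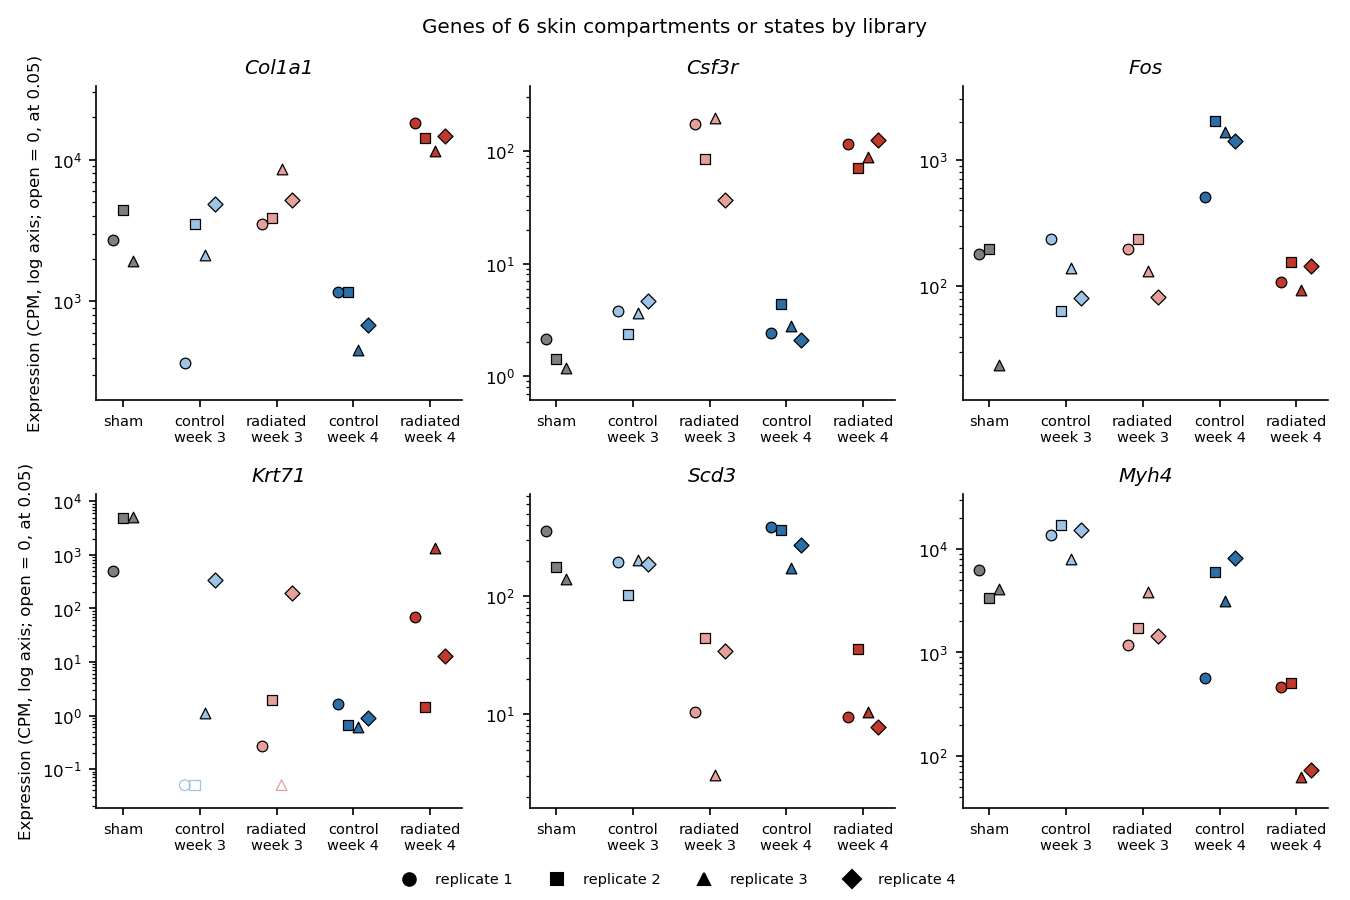
Expression in CPM (log axis) of Col1a1 (fibroblasts), Csf3r (neutrophils), Fos (immediate early gene), Krt71 (growing hair follicle), Scd3 (sebocytes) and Myh4 (fast muscle) in each library of sham skin (3) and of control and radiated skin of weeks 3 and 4 (4 each), with the replicate number as shape and open points at 0.05 for 0. Among the groups shown Fos is highest in the control libraries of week 4, Krt71 spreads widely within several groups, and Myh4 in control replicate 1 of week 4 lies below the other control libraries and just above the radiated libraries of that week.

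Blood vessel genes rose in 18 and fell in 0 of 21 cases (median 1.18). Pecam1, found on all endothelium, had 164, 156, 165 and 193 CPM against 93.1, 61.3, 64.4 and 81.3 CPM (log2 fold change 1.18, SE 0.143, edgeR adjusted p 0.00012). Larger were the rises of Selp, P-selectin, which catches white blood cells (62.3, 53.9, 102 and 119 against 6.83, 4.56, 3.76 and 6.19 CPM, log2 fold change 3.99, SE 0.308, edgeR adjusted p 8.99e-06), Vcam1 (75.3, 45.4, 83.0 and 82.9 against 7.73, 4.16, 4.61 and 4.15 CPM, log2 fold change 3.81, SE 0.268, edgeR adjusted p 5.9e-06) and Apln, apelin, a signal of sprouting vessels (45.3, 33.6, 40.1 and 48.9 against 2.70, 3.18, 1.79 and 1.38 CPM, log2 fold change 4.23, SE 0.255, edgeR adjusted p 3.27e-06). Of 9 lymphatic genes 2 rose and 2 fell, near the background of 24.2% each way, and Prox1, their defining factor, was at 12.3 against 12.3 CPM. Of 10 genes of pericytes and vascular smooth muscle 3 rose and 4 fell: Pdgfrb rose (137 against 35.6 CPM, edgeR adjusted p 3.87e-06) and Myh11, smooth muscle myosin, fell (109 against 338 CPM, edgeR adjusted p 7.41e-06). With total-count scaling 2 of these were lower. The background is 24.2% each way.

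Nerve sheath genes fell more often than they rose, 8 against 3 of 15. Cdh19, a cadherin of Schwann cells, was at 7.34, 8.92, 4.65 and 5.58 CPM in radiated and 24.0, 24.8, 23.5 and 25.8 CPM in control libraries (log2 fold change -1.88, SE 0.19, edgeR adjusted p 4.2e-05). Of the secreted nerve factors in the list, Gdnf (14.6 against 26.3 CPM) and Ntf3 (1.10 against 3.49 CPM) fell (edgeR adjusted p 0.00371 and 0.0168). Artn, artemin, which supports pain-sensing fibres, rose (3.76, 2.95, 5.41 and 5.40 against 0.159, 0.177, 0.256 and 0.308 CPM, log2 fold change 4.23, SE 0.332, edgeR adjusted p 9.84e-06). With 35 libraries 5 genes of the list were lower.

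Immediate early genes, which answer stimuli within minutes, and other genes of the AP-1 family had the largest share of falls among the 50 lists, 17 of 20, with 3 rises. Fos had 107, 154, 92.7 and 144 CPM in radiated and 512, 2041, 1662 and 1401 CPM in control libraries (log2 fold change -3.49, SE 0.388, edgeR adjusted p 7.13e-05). Egr1 had 120.3, 160.2, 153 and 137 CPM against 663, 1486, 1177 and 1078 CPM (log2 fold change -2.94, SE 0.226, edgeR adjusted p 8.66e-06) and Jun 147, 151, 137 and 132 CPM against 321, 1270.3, 968 and 847 CPM (log2 fold change -2.58, SE 0.34, edgeR adjusted p 0.000203). Sham skin held 179.7, 197 and 23.7 CPM of Fos, 180.2, 298 and 149 CPM of Egr1 and 198, 353 and 169.7 CPM of Jun, and all control libraries were above all sham libraries in Fos and Egr1, while Jun in control replicate 1 lay within the sham range. Control libraries of week 3 held 234, 63.4, 139.9 and 80.8 CPM of Fos, 340.4, 145, 245 and 327 CPM of Egr1 and 255, 209, 223 and 231 CPM of Jun. Control replicate 1 of week 4 was the lowest of its group in all 3 genes. The summed level of the list was 8843 ± 2831 CPM in control skin of week 4, 4890.0 ± 869 CPM in control skin of week 3, 2760.4 ± 688 CPM in sham skin and 2634.5 ± 229 CPM in radiated skin of week 4 (mean ± SD). Fosl1, an AP-1 gene of migrating and growing cells, went the other way, from 3.33, 3.94, 1.58 and 1.31 CPM to 19.4, 23.6, 42.3 and 42.8 CPM (log2 fold change 3.68, SE 0.409, edgeR adjusted p 7.13e-05).

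Of 18 circadian clock genes 2 rose and 12 fell (median -0.90). The summed level of the list was 844 ± 90.5 CPM in radiated, 1561 ± 17.2 CPM in control and 1050.5 ± 201 CPM in sham skin (mean ± SD). The core factor Arntl was at 34.8, 31.9, 38.8 and 30.1 CPM against 66.4, 55.6, 55.7 and 47.2 CPM (log2 fold change -0.72, SE 0.121, edgeR adjusted p 0.000862) and the output gene Hlf at 12.9, 14.4, 7.16 and 5.40 CPM against 80.2, 92.8, 106 and 91.7 CPM (log2 fold change -3.21, SE 0.289, edgeR adjusted p 2.07e-05). The rises were Bhlhe40, also a hypoxia gene (log2 fold change 1.48, SE 0.133, edgeR adjusted p 2.06e-05), and Per2 (log2 fold change 0.45, SE 0.156, edgeR adjusted p 0.0365), a call kept in 7 of 15 alternatives. Clock genes in opposite phases of the daily cycle, such as Arntl and Per1 (log2 fold change -0.95, SE 0.191, edgeR adjusted p 0.00254), fell together. The hours of sampling are not given in the labels.

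Glycolysis and hypoxia genes rose in 12 and fell in 2 of 23 cases. Slc2a1, the glucose transporter of activated cells, was at 157, 157, 139 and 138 CPM against 60.7, 62.7, 67.9 and 51.7 CPM (log2 fold change 1.29, SE 0.0967, edgeR adjusted p 7.6e-06), and Hif1a at 447, 375, 353 and 439.6 CPM against 150.30, 140.2, 132 and 123 CPM (log2 fold change 1.57, SE 0.106, edgeR adjusted p 4.84e-06). The falls were Eno3, of muscle, whose call was kept in 7 of 15 alternatives and lost with the block, and Bnip3. Of 20 subunits of the respiratory chain 0 were higher and 1 lower (median -0.26), and without control replicate 1, the library low in muscle RNA, 8 were lower. Of 22 NRF2 antioxidant genes 6 were higher and 7 lower, near the background of 24.2% each way. Slc7a11, the cystine importer, rose (103, 79.6, 43.0 and 103 against 11.8, 7.92, 8.20 and 7.50 CPM, log2 fold change 3.23, SE 0.287, edgeR adjusted p 1.95e-05), as did Gsta4 (146 against 5.03 CPM, edgeR adjusted p 2.51e-06), while catalase (Cat, 38.5 against 100.2 CPM, edgeR adjusted p 3.48e-05) fell and Nqo1, a standard NRF2 readout, was at 7.79 against 6.97 CPM.

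Wnt ligands and modulators fell in 9 and rose in 6 of 25 cases, against a background of 24.2% each way. The epidermal and follicular ligands Wnt3 (3.07, 11.0, 7.54 and 2.72 against 59.9, 49.1, 51.3 and 46.8 CPM, log2 fold change -3.08, SE 0.399, edgeR adjusted p 0.000182) and Wnt7b (7.57 against 40.7 CPM, edgeR adjusted p 0.000357) fell. Sfrp2, a secreted modulator made by fibroblasts, rose from 2.38, 4.95, 5.98 and 2.46 CPM to 78.0, 41.1, 65.3 and 55.2 CPM (log2 fold change 3.93, SE 0.333, edgeR adjusted p 1.49e-05).

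Week 4 was then set against week 3, the nearest comparison in time, by testing the difference of the 2 radiated-minus-control differences in a fit of 32 libraries. The weeks were taken to come from different mice, since the design divides the mice into separate groups after radiation. The labels tie no sample to a mouse. Of 19338 genes tested with edgeR 81 (0.419%) had a changed difference, 51 (0.264%) toward radiated skin and 30 (0.155%) away from it, and 2684 had an unadjusted p under 0.05. With total-count scaling, which moves the median over all genes from -0.03 to -0.20, the split was 9 and 52, and with the replicate block it was 128 and 47. The counts lean on single libraries, as leaving out 1 of 16 gave between 3 and 156 genes.

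Pmepa1 (chromosome 2, 173224458 to 173276533), a TGF-beta target that feeds back on the pathway, had 217, 204, 214 and 197 CPM in radiated and 28.4, 32.7, 27.7 and 25.3 CPM in control libraries of week 4, and 132, 123, 239 and 114 CPM against 89.7, 128, 93.0 and 96.5 CPM in week 3. The log2 difference grew by 2.30 (SE 0.356, edgeR adjusted p 0.00866). Slc7a5 (chromosome 8, 121881150 to 121907694), an importer of large amino acids, had 43.9, 49.0, 75.2 and 56.0 CPM against 16.7, 22.9, 20.3 and 24.7 CPM in week 4 and 41.1, 66.9, 58.2 and 55.1 CPM against 139, 92.1, 83.0 and 87.6 CPM in week 3, a step of 2.27 (SE 0.371, edgeR adjusted p 0.00866). Lysmd1 (chromosome 3, 95134088 to 95139518), a gene of uncertain function, went down, with 16.4, 18.7, 20.0 and 12.8 CPM against 51.8, 63.7, 87.5 and 71.1 CPM in week 4 and 18.1, 17.0, 19.5 and 21.6 CPM against 20.2, 23.2, 21.8 and 21.4 CPM in week 3, a step of -1.82 (SE 0.298, edgeR adjusted p 0.00866). These 3 genes passed in all 20 alternatives, and the other 7 named next in 11 to 15 of 20.

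Fosl1 (chromosome 19, 5447547 to 5455946) had a step of 4.96 (SE 0.955, edgeR adjusted p 0.027), from -1.25 in week 3 to 3.68 in week 4. Its radiated libraries held 19.4, 23.6, 42.3 and 42.8 CPM in week 4 and 58.5, 67.4, 69.6 and 18.1 CPM in week 3, and its control libraries 3.33, 3.94, 1.58 and 1.31 CPM in week 4 and 111, 139, 124 and 147 CPM in week 3. Sham skin held 1.94, 2.47 and 0.981 CPM, so the control libraries of week 3 stood apart in this gene. B4galt5 (chromosome 2, 167298444 to 167349183), which makes lactosylceramide, had a step of 1.83 (SE 0.355, edgeR adjusted p 0.027) (65.2 to 98.6 against 12.2 to 16.7 CPM in week 4, 56.1 to 127 against 52.1 to 80.4 CPM in week 3), and Sptlc2 (chromosome 12, 87305058 to 87388355), a subunit of the first enzyme of sphingolipid synthesis, of 0.83 (SE 0.163, edgeR adjusted p 0.027) (101 to 114 against 54.2 to 66.7 CPM in week 4, 87.6 to 112 against 81.0 to 105 CPM in week 3). Downward went Acvr1b (chromosome 15, 101174067 to 101213684), the activin receptor ALK4, with a step of -0.86 (SE 0.151, edgeR adjusted p 0.0227) (117 to 133 against 168 to 201 CPM in week 4, 121 to 157 against 92.4 to 131 CPM in week 3), and Hs3st3b1 (chromosome 11, 63885792 to 63922290), a heparan sulfate sulfotransferase, with -1.65 (SE 0.311, edgeR adjusted p 0.0269) (8.48 to 14.8 against 49.8 to 72.4 CPM in week 4, 11.8 to 19.5 against 19.7 to 37.2 CPM in week 3). Nxph3 (chromosome 11, 95509845 to 95514570), a neurexophilin, had a step of -2.77 (SE 0.518, edgeR adjusted p 0.0269) (1.86 to 2.50 against 11.2 to 16.1 CPM in week 4, 1.60 to 4.76 against 1.97 to 3.67 CPM in week 3). Hsdl1 (chromosome 8, 119561989 to 119575183), a dehydrogenase-like protein, had a step of -0.99 (SE 0.184, edgeR adjusted p 0.0269) (21.3 to 21.9 against 49.2 to 52.8 CPM in week 4, 25.6 to 30.3 against 28.9 to 35.8 CPM in week 3). In all 10 named genes the control libraries of weeks 3 and 4 did not overlap, while the radiated libraries of the 2 weeks overlapped in 9 of 10, Hsdl1 being the exception. These genes were chosen by the smallest p of a test on these same libraries, so separation was favoured in advance. The share over all genes was not counted, so the overlap describes these 10 genes only.

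Of 11 fibrillar collagens 4 had a larger difference in week 4 (Col1a2, Col5a1, Col5a2 and Col27a1) and 0 a smaller one, and of 22 collagen-modifying enzymes 3 (P4ha2, P4ha3 and Loxl2) and 0. These calls lean on single libraries: the collagens passed in 6 (Col27a1) to 10 (Col5a1) of 20 alternatives and the enzymes in 6 (P4ha2) to 9 (P4ha3). No test compared the lists. Col1a2 had a log2 fold change of 0.51 in week 3 and a step of 2.68 (SE 0.593, edgeR adjusted p 0.0411). Col1a1, at 0.99 in week 3, had a step of 3.15 (SE 0.753, edgeR adjusted p 0.0571) and did not pass. It did in 5 of 20 alternatives, the replicate block among them. Fos, with 0.35 in week 3, had a step of -3.81 (SE 0.982, edgeR adjusted p 0.0693) and did not pass. It did in 3 of 20 alternatives, the block among them. Jun had a step of -2.21 (SE 0.437, edgeR adjusted p 0.027), a call kept in 12 of 20 alternatives. The inner root sheath keratin Krt71, at -0.79 in week 3, had a step of 9.40 (SE 3.81, edgeR adjusted p 0.253). No member of the neutrophil, macrophage, interferon or epidermal keratin lists had a changed difference, and a p over the threshold does not show that the weeks were alike.

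**Figure D5:**
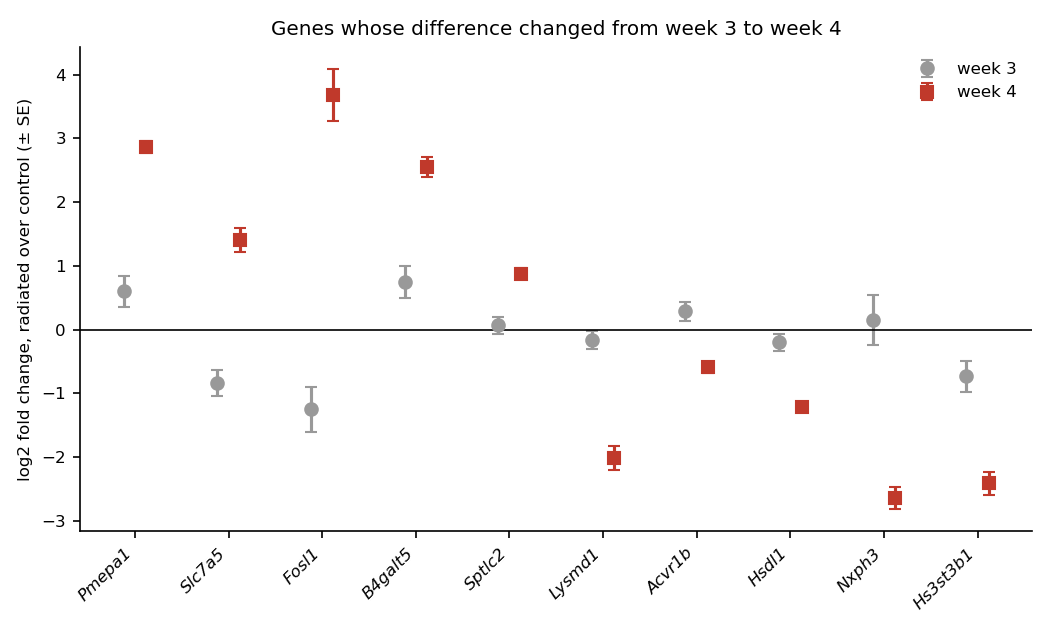
Log2 fold change of radiated over control skin (bars, SE) in week 3 (grey circles) and week 4 (red squares) for the 10 genes named for the step between the weeks. Fosl1, Slc7a5, Acvr1b and Nxph3 change sign between the weeks, while Lysmd1, Hsdl1 and Hs3st3b1 are negative in both.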

How the data were processed

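RNA of whole mouse skin was sequenced and quantified per gene. The deposited values are estimated counts made by the authors with Kallisto, per the labels' protocols. The submitters' processing notes list Trim Galore 0.6.7, kallisto 0.46.2 and the mm10 build, and the transcript release is not given in the sources used here. The estimated counts were rounded to whole numbers. Positions are GRCm38, from GENCODE M21, which held 35866 of the 36106 gene IDs, and promoter sequences are from RefSeq (GRCm38.p6).

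The 4 radiated and 4 control libraries of week 4 were compared with edgeR 4.0.16 (R 4.3.3, limma 3.58.1): genes with low counts were left out with filterByExpr, libraries were scaled with TMM, and the quasi-likelihood test was used without a block, with Benjamini-Hochberg adjustment and a threshold of 0.05. Standard errors were taken from the fold change and the F statistic. CPM uses TMM scaling over 35 libraries. Numbers were not taken to pair the samples because the labels state no pairing. Same-numbered libraries did not deviate together (mean correlation -0.02 over 4 pairs and 19813 genes, against 0.007 for other pairs). With 4 pairs, and single libraries that stand apart, this cannot show whether the samples share a mouse. The change from week 3 was tested as a contrast over 32 libraries.

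Named genes are the 12 largest rises and 12 largest falls among called genes that reach 5 CPM on average, a symbol that is no clone or pseudogene name and 1 direction in all 4 same-numbered comparisons (a choice of genes only, which does not take the numbers as pairs), the 6 largest rises and 6 largest falls in mean CPM, and the 5 genes with the smallest p in each direction among those whose difference changed from week 3 and whose mean reached 5 CPM. Members of 50 gene lists are named with a mean of at least 1 CPM, or where a statement on their list turns on them. Members and lists were chosen with earlier results of these data known. Alternatives were the replicate block, total-count and RLE scaling, DESeq2 1.42.0, no filter, 1 spread over 35 libraries, and leaving out each library. Leaving out both libraries that stand apart was added after the data were seen. The procedures were tested on simulated data, where not all changes were recovered and the share of false calls was above the nominal threshold in both comparisons. Some list members are not reported here. Counting intervals and floors cover counting error only.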

Additional observations from a re-analysis of the deposited data

Results flagged for a closer look

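In groups of 4 libraries, 7 of 166 values had 1 library far from the other 3 by Dixon's test, and chance marks about 1 in 20 groups. In 2 of the 7 the other 3 libraries were tied at 0, which fixes the ratio and makes the test void, and 5 are left. The summed chemokine list was 938 CPM in radiated replicate 2, below the others (1240 to 1260 CPM). The summed interferon-stimulated list was 481 CPM in control replicate 2, above the others (325 to 346 CPM). Sprr2d and Mmp10 were each at 0.0442 CPM in control replicate 2, a single count, where the other control libraries had 0, so these are the 2 void cases. Tnc was at 5.38 CPM in control replicate 3, below the others (7.99 to 8.46 CPM). Hamp2 was at 0.776 CPM in radiated replicate 2, where the others reached at most 0.0446 CPM. Cyp2e1 was at 1.47 CPM in radiated replicate 3, below the others (3.30 to 3.84 CPM).

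For the 10 genes named for the step, which were chosen by their p from the 81 that passed, the radiated-minus-control difference differed between weeks 3 and 4 by the test of that difference in edgeR. On the log2 scale it grew for Pmepa1 by 2.30, Slc7a5 by 2.27, Fosl1 by 4.96, B4galt5 by 1.83 and Sptlc2 by 0.83. The change was -1.82 for Lysmd1, -0.86 for Acvr1b, -0.99 for Hsdl1, -2.77 for Nxph3 and -1.65 for Hs3st3b1.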

How the results depend on the processing

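Of the 8643 genes called in week 4, between 6553 (1 spread over all 35 libraries) and 8608 (DESeq2) kept their call in each alternative, and 0 changed sign. The genes named for the size of their week 4 change kept direction and side of the threshold in all 492 fits that gave an adjusted p. Of 615 called genes among these and the list members, 477 kept the call in every alternative, and list members named in the report whose call was lost in more than 2 alternatives (Cdkn1a, Cxcl9, Usp18, Per2 and Eno3) are marked there. With the replicate block 7623 genes were called in week 4 and 7470 of the 8643 kept their call.

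The change from week 3 (81 genes, 51 up and 30 down) depended more on the settings. It covered 175 genes (128 up, 47 down) with the replicate block, 420 (253 and 167) with DESeq2, 350 (228 and 122) with the 16 libraries of weeks 3 and 4 alone and 61 (9 and 52) with total-count scaling. Leaving out 1 library gave 3 to 156 genes, with 2 to 94 up and 1 to 62 down. It gave 3 without radiated replicate 1 or 4 or control replicate 2 or 3 of week 4, or control replicate 2 of week 3. It gave 8 without control replicate 4 of week 3 and 13 without control replicate 4 of week 4. It gave 19 and 24 without radiated replicates 2 and 4 of week 3, 26 without radiated replicate 2 of week 4, 35 without control replicate 1 of week 4, 49 without control replicate 3 of week 3 and 156 without radiated replicate 1 of week 3. The cause was not tested.

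List counts moved by over 1.5 times in 158 cases and by less in 1342, mostly where 5 or fewer genes were counted, and some stand beside the lists. Without radiated replicate 4 or control replicate 2, 3 other collagens were lower. Fitted over 35 libraries 1 matricellular and 1 senescence gene were lower. Without control replicate 2 or 4, 1 senescence gene was lower. Without radiated replicate 4 or control replicate 1 or 2, 4 repair genes were lower, without control replicate 4, 5 were, and without radiated replicate 4 or control replicate 2 or 4, 3 p53 targets were. Without radiated replicate 2, 5 hair shaft genes were higher, and without radiated replicate 3, 1 was higher and 4 lower. Without radiated replicate 4, 2 pericyte genes were lower. Without radiated replicate 1, 4 chemokines were lower, and without radiated replicate 3, 4 genes of the interleukin-1 family were lower and 4 lymphatic genes higher. Without control replicate 1, 5 glycolysis, 4 contractile fibroblast and 4 muscle regeneration genes were lower. With the block 1 glycolysis gene and 1 B cell gene were lower.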
